A study of Mus musculus with 15 samples.

Results

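Liver transcripts of 7 genes that were close to undetected on a control diet and higher on fat-rich diets were followed library by library: Hao2, Ubd, Sprr1a, Mab21l3, Sdcbp2, Ephb2 and Themis. They are 7 of the 56980 Ensembl gene IDs in the deposited count table, and all 7 passed the filter on low counts that kept 14627 genes for testing. They were chosen by their measured counts, which lay near 0 in the control livers and were higher on a fat-rich diet, so their levels against control are given here as a description with no test. Every control library of every one of the 7 genes lay under 1 CPM (counts relative to library size after TMM scaling), as did those of 1569 tested genes, or 10.7%. The filter asks for a minimum count in several libraries, so a gene at 0 in all controls could be tested only where it was higher on another diet.

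The livers came from wild-type male C57BL/6J mice that were 15 weeks old when they were put on their diets and stayed on them for 9 months. Every sample title also carries the label ALF, which the titles do not spell out. Fat made up 10% of the control diet, 60% of the high-fat diet and 89.9% of the ketogenic diet. Control replicate 1 was left out because the submitters excluded it as contaminated. The n of every mean ± SD is therefore 4 for control, 5 for high-fat and 5 for ketogenic livers. Since no label ties each library to its own mouse, p-values speak only of the spread among these libraries, which may be technical.

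The 7 genes belong to unrelated families. Hao2 encodes a peroxisomal oxidase of longer-chain 2-hydroxy acids. Ubd encodes FAT10, a ubiquitin-like protein that interferon-gamma and TNF induce and that marks proteins for the proteasome. Sprr1a encodes a small proline-rich protein that transglutaminases crosslink into the envelope of stratified epithelia, and it is also induced in injured neurons. Themis encodes an adaptor of T cell receptor signalling in thymocytes. Ephb2 encodes a receptor tyrosine kinase for membrane-bound ephrins. Sdcbp2 encodes syntenin-2, a scaffold with PDZ domains related to syntenin-1, which binds syndecans. Mab21l3 encodes a protein with the nucleotidyltransferase fold of the Mab21 family, with a role in the cell fates of ciliated epidermis described in the frog Xenopus.

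The genes lie on several chromosomes: Hao2, Sprr1a and Mab21l3 on chromosome 3, Ubd on chromosome 17, Sdcbp2 on chromosome 2, Ephb2 on chromosome 4 and Themis on chromosome 10. The 250 bases before each start were read from RefSeq (GRCm38.p6, while the counts were made on GRCm39) for all 7 genes, with 2 starts for Themis. They were searched on both strands for the AP-1 motif TGANTCA, the interferon-gamma-type STAT motif TTCNNNGAA, the nuclear receptor motif AGGTCA and the TATA box TATAAA. Sprr1a and Sdcbp2 held matches, and the windows of the other 5 genes held none of these letters. The Sprr1a window (chr3:92485882-92486131, minus strand) held the AP-1 motif 146 and 116 bases before the start and TATAAA 43 bases before it. The Sdcbp2 window (chr2:151572373-151572622, plus strand) held the AP-1 motif 44 bases before the start. Both windows are shown because they hold the matches, with the matched letters in capitals, 5′ to 3′.
Sprr1a: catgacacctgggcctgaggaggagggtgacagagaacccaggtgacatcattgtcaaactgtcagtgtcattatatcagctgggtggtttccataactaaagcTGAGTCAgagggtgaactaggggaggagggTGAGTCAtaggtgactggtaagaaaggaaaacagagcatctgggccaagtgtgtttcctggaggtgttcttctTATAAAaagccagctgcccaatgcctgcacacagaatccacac
Sdcbp2: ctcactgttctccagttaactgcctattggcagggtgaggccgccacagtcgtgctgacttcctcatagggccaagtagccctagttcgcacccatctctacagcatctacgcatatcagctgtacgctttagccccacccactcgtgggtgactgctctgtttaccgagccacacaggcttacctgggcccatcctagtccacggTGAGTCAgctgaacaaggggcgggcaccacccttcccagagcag
Among 32851 RefSeq promoter windows of this length, 6.75% held the AP-1 motif, 7.02% the STAT motif, 14% the receptor motif and 12.4% TATAAA. A match of letters describes the window and is no evidence of a bound factor.

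Total counts of the 14 libraries ran from 16329425 to 25349148, so 1 count was worth about 0.05 CPM, as in the single Mab21l3 count of control replicate 5 (0.0571 CPM). Ketogenic replicate 5 stood apart from its group in marker genes of several cell types. It had a summed level of the 8 hepatocyte markers of 64500 CPM, the lowest of all libraries, against 81100 to 114000 CPM in the other ketogenic libraries. Its 6 lipid-associated macrophage markers summed to 437 CPM against 39.3 to 133 CPM in the other ketogenic libraries, and its 21 T and NK cell markers to 38 CPM against 11 to 13.9 CPM. In bulk tissue, fewer cells of a type and less RNA per cell cannot be told apart. Control replicate 2 stood apart too, with a sum of the 9 pancreatic acinar markers of 1480 CPM against 25.2 to 157 CPM in the other controls, and of the 5 neutrophil markers of 83.5 CPM against 2.85 to 4.43 CPM. High-fat replicate 1 had the lowest sum of its diet for stellate cell and fibroblast markers (264 CPM against 318 to 407 CPM) and for cholangiocyte markers (59.9 CPM against 75.1 to 97.8 CPM). Most of the cholangiocyte sum was Spp1, with 66.2 CPM of 81.1 CPM on average on the high-fat diet. Spp1 is also among the lipid-associated macrophage markers, so this sum does not speak for bile duct cells alone. Results that rest on these libraries are given with and without them.

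Hao2, the peroxisomal oxidase, was higher in every high-fat library than in any control, and less so on the ketogenic diet. Control replicates 2 to 5 had 1, 5, 0 and 4 counts (0.135 ± 0.126 CPM). High-fat replicates 1 to 5 had 0.867, 4.21, 1.22, 1.5 and 5.17 CPM (2.59 ± 1.96), with replicates 2 and 5 far above the rest. Ketogenic replicates 1 to 5 had 0.849, 0.821, 0.358, 0.0919 and 1.5 CPM (0.724 ± 0.539). Ketogenic replicate 4, with 2 counts, lay within the controls, so 4 of 5 ketogenic libraries exceeded all controls. High-fat libraries lay wholly above the controls for all 7 genes and ketogenic libraries for 5 of 7, which the choice of the genes used, while the same held for 9.45% and 7.38% of all tested genes. The mean was 19.2 times the control mean on the high-fat diet and 5.37 times on the ketogenic diet.

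Hao1, the liver paralog of Hao2 that oxidises glycolate, did not pass the test on either diet. It had 262 ± 33.4 CPM in controls, 243 ± 35.1 on the high-fat diet and 266 ± 82.8 on the ketogenic diet, with log2 fold changes of -0.11 ± 0.20 (SE, adjusted p = 0.780) and 0.02 ± 0.20 (adjusted p = 0.958). Of 14 tested peroxisomal oxidase and glyoxylate genes, 4 rose and 0 fell on the high-fat diet, and 5 rose and 0 fell on the ketogenic diet. Over all tested genes 12% passed the test (edgeR's quasi-likelihood test, Benjamini-Hochberg adjusted p under 0.05) in high-fat against control livers and 12.1% in ketogenic against control livers. Of all tested genes 6.95% rose and 5.01% fell on the high-fat diet, and 7.47% rose and 4.6% fell on the ketogenic diet. The list's median log2 fold changes were 0.17 and 0.28, beside 0.01 and 0.03 over all tested genes. Acox2, an oxidase of branched chains and bile acid intermediates, rose by 0.59 ± 0.13 (adjusted p = 0.00801) and 0.77 ± 0.13 (adjusted p = 0.00105) on the log2 scale. Agxt2, a mitochondrial aminotransferase that acts on glyoxylate, rose by 0.71 ± 0.12 (adjusted p = 0.00134) and 0.83 ± 0.12 (adjusted p = 0.00029).

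Rodent kidney also expresses Hao2, so kidney transcripts were looked up beside it. The 6 kidney tubule markers summed to 2.23 to 5.88 CPM in controls, 0.149 to 2.37 CPM in high-fat and 0.183 to 2.39 CPM in ketogenic libraries. Slc34a1, Slc22a6 and Kap, which define the proximal tubule, were at 0 in all controls and averaged at most 0.0256 CPM on either fat-rich diet. Most of the mean sum was Lrp2, with 4.25 ± 1.45, 1.23 ± 0.863 and 0.892 ± 0.877 CPM on the control, high-fat and ketogenic diets. The 2 highest libraries for Hao2 on the fat-rich diets, high-fat replicates 5 and 2, had tubule sums of 0.149 and 0.770 CPM, below every control. The part of kidney transcripts in the Hao2 level was not tested.

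Ubd was higher in every fat-rich library than in any control, and its mean was highest on the ketogenic diet. Controls had 12, 5, 3 and 6 counts (0.357 ± 0.228 CPM). High-fat libraries had 3.12, 6.40, 9.54, 11.4 and 12.2 CPM (8.52 ± 3.75), and ketogenic libraries had 24, 16.4, 7.87, 5.93 and 31.2 CPM (17.1 ± 10.7). Ketogenic replicates 1, 2 and 5 lay above all high-fat libraries, and replicates 3 and 4 lay among them. The means were 23.9 and 47.8 times the control mean on the high-fat and ketogenic diets.

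Few genes of the inducers and partners of FAT10 passed the test. Of 15 tested immunoproteasome, interferon-gamma and TNF response genes, 0 passed the test in either direction on either diet in edgeR's test. DESeq2 also called 0, and the counts at an unadjusted p under 0.05 were 0 on the high-fat and 4 on the ketogenic diet. Over all 14627 tested genes, 4014 and 4092 had an unadjusted p under 0.05, and DESeq2 called 2441 and 2422. Without high-fat replicate 1 and ketogenic replicate 5, edgeR called 3239 and 1943 of 14369 genes. The median log2 fold changes of the 15 genes were 0.04 and 0.16. B2m, the most abundant, had 1200 ± 102, 1430 ± 194 and 1510 ± 272 CPM on the control, high-fat and ketogenic diets (adjusted p = 0.290 and 0.164 against control). Psmb8, an immunoproteasome subunit, had 40.1 ± 6.38, 38.4 ± 8.55 and 40.0 ± 8.20 CPM. Ifng itself was at 0 in the controls and averaged 0.0646 and 0.0688 CPM on the fat-rich diets. Tnf averaged 0.159, 0.386 and 0.619 CPM on the control, high-fat and ketogenic diets. Its log2 fold changes were 1.23 ± 0.88 (adjusted p = 0.392) and 1.94 ± 0.85 (adjusted p = 0.148). Of 8 tested genes that conjugate or bind FAT10, 0 passed on the high-fat diet (2 at an unadjusted p under 0.05, 0 in DESeq2, 2 without high-fat replicate 1 and ketogenic replicate 5) and 1 rose on the ketogenic diet (2 called in DESeq2). That gene was Mad2l1, a spindle checkpoint protein that FAT10 binds, with 2.44 ± 0.300 CPM in controls and 4.33 ± 1.27 on the ketogenic diet (log2 fold change 0.83 ± 0.22, adjusted p = 0.0236). Its call was lost without control replicate 4 or 5 and with the 2 diets fitted alone (adjusted p from 0.0539). Uba6, which activates FAT10, had 11.1 ± 1.70, 11 ± 2.54 and 10.0 ± 1.01 CPM.

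Sprr1a, the envelope protein, had 0 counts in all 4 controls and counts in all 10 fat-rich libraries. High-fat libraries had 3, 28, 40, 23 and 107 counts (1.99 ± 1.98 CPM), and ketogenic libraries had 19, 9, 5, 3 and 80 (0.913 ± 1.16 CPM). Replicate 5 was by far the highest of both diets, at 5.32 and 2.93 CPM, and the lowest libraries of both had 3 counts. Taking 3 counts over the pooled controls as the floor, the level was at least 49.7-fold higher on the high-fat diet and at least 25.5-fold higher on the ketogenic diet. These bounds fell to 29.1-fold without high-fat replicate 5 and 10.4-fold without ketogenic replicate 5. Floors and intervals here cover counting error only.

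Few other genes of the cornified envelope had enough counts to be tested. Of 20 such genes in the table, 8 had 0 counts in all 14 libraries, and 4 passed the filter. Of these 4, 0 rose and 1 fell on each diet, too few to set against the 6.95% and 7.47% of all tested genes that rose. The 8 were Sprr2a1, Sprr2a3, Sprr2d, Sprr2e, Sprr2f, Sprr2g, Sprr2h and Sprr4, all relatives of Sprr1a. Sprr3 was at 0 in controls and averaged 0.345 ± 0.554 and 0.473 ± 0.587 CPM on the high-fat and ketogenic diets, too low for the filter. The gene that fell on both diets was Tgm1, a transglutaminase that crosslinks envelope proteins, from 21.7 ± 4.15 CPM to 8.54 ± 1.09 (log2 fold change -1.34 ± 0.19, adjusted p = 0.000502) and 10.0 ± 2.76 (-1.12 ± 0.19, adjusted p = 0.00124). Rptn, another envelope gene beside Sprr1a on chromosome 3, averaged 0.0764, 0.441 and 1.06 CPM on the control, high-fat and ketogenic diets. Its log2 fold changes of 2.3 and 3.63 did not pass (adjusted p = 0.447 and 0.182).

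The summed level of keratinocyte markers was highest in the same 2 libraries as Sprr1a, and there it was nearly all Ly6d. The 7 keratinocyte markers summed to 1.08 to 3.56 CPM in controls, to 5.72 to 44.5 CPM in high-fat libraries and to 4.80 to 33.0 CPM in ketogenic libraries, with the highest sums in high-fat replicate 5 and ketogenic replicate 5. Most of the mean sum on the fat-rich diets was Ly6d, a surface protein also made by other cells, with 1.16 ± 0.702, 16.0 ± 15.8 and 11.6 ± 11.5 CPM on the 3 diets. Its highest values, 43.1 CPM on the high-fat and 30.4 CPM on the ketogenic diet, lay in those replicates 5. The highest Krt5 values, 0.809 and 3.26 CPM, lay in other libraries. In controls Krt10, a keratin of upper epidermal layers, was the larger part, with 1.38 ± 0.920 CPM. Ly6d rose on the high-fat diet (log2 fold change 3.77 ± 1.02, adjusted p = 0.0324), a call that 8 of 21 alternatives lost, among them every one that left out a control, and did not pass on the ketogenic diet (3.31 ± 1.01, adjusted p = 0.0519). The defining basal keratins were low: Krt5 was at 0 in controls and averaged 0.221 and 0.894 CPM, and Krt14 averaged 0.0694, 0.234 and 0.298 CPM. Krt1 and Dsg3 were at 0 in controls and averaged at most 0.0974 CPM on either fat-rich diet. The part of these transcripts in the Sprr1a level was not tested.

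Genes of the AP-1 factors, whose motif stands in the Sprr1a and Sdcbp2 windows printed above, rose in part on both diets. Of 10 tested AP-1 and regeneration-associated genes, 3 rose and 0 fell on the high-fat diet, and 4 rose and 1 fell on the ketogenic diet. DESeq2 called 6 and 7 of the 10, and without high-fat replicate 1 and ketogenic replicate 5 edgeR called 8 and 4. Over all genes DESeq2 called 2441 and 2422 of 14627, and edgeR without those 2 libraries called 3239 and 1943 of 14369. The median log2 fold changes of the 10 genes were 0.96 and 0.99. Among all tested genes 6.95% and 7.47% rose, and 5.01% and 4.6% fell, on the high-fat and ketogenic diets. Jun rose from 16.9 ± 3.59 CPM to 41.3 ± 15.0 (1.29 ± 0.25, adjusted p = 0.00423) and 45.3 ± 3.94 (1.42 ± 0.25, adjusted p = 0.00179). Junb rose from 11.1 ± 1.44 CPM to 20.9 ± 3.21 (adjusted p = 0.0147, lost without control replicate 5) and 19.8 ± 6.74 (adjusted p = 0.0212, lost in 5 of 21 alternatives). Fosb averaged 0.0539 CPM in controls, 0.947 ± 0.507 on the high-fat diet (adjusted p = 0.0147) and 0.606 ± 0.518 on the ketogenic diet (adjusted p = 0.0358, lost in 6 of 20 alternatives). The gene that fell was Gadd45a, a growth arrest and DNA damage gene, by 1.28 ± 0.34 on the log2 scale on the ketogenic diet (adjusted p = 0.0228, lost in 5 of 21 alternatives). Fosl2, another AP-1 gene, rose on the ketogenic diet from 11.2 ± 1.96 to 17.0 ± 4.32 CPM (0.60 ± 0.18, adjusted p = 0.0449), which 13 of 21 alternatives lost, and did not pass on the high-fat diet (adjusted p = 0.165). Fos and Atf3 did not pass on either diet: Fos had adjusted p = 0.0509 and 0.111, and Atf3 had 0.133 and 0.0885. The part of AP-1 factors in the Sprr1a and Sdcbp2 levels was not tested.

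Themis had the highest mean CPM of the 7 genes on the high-fat diet. Controls had 0, 8, 11 and 17 counts (0.485 ± 0.401 CPM). High-fat libraries had 6.47, 11.6, 22.2, 15.6 and 7.66 CPM (12.7 ± 6.42), and ketogenic libraries had 28.5, 13.4, 14.3, 10.7 and 12.3 CPM (15.8 ± 7.19). All 10 fat-rich libraries lay above all controls, and ketogenic replicate 1 stood well above the other ketogenic libraries. The means were 26.2 and 32.6 times the control mean, and 39.3 and 48.9 times without control replicate 5, the highest control. Themis shares 153 exon bases with the pseudogene 4930519F09Rik on the opposite strand, which had 1 count in the 14 libraries.

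The 21 T and NK cell markers summed to 15.6 to 16.8 CPM in controls, 11 to 15.1 CPM in high-fat libraries and 11 to 13.9 CPM in 4 ketogenic libraries, with 38 CPM in ketogenic replicate 5, which had the fourth highest Themis level of its diet. Of the 10 that were tested, 0 rose and 1 fell on the high-fat diet (2 called in DESeq2, and 2 in edgeR without high-fat replicate 1 and ketogenic replicate 5), and 0 passed on the ketogenic diet (1 at an unadjusted p under 0.05, 0 in DESeq2). With 6.95% and 7.47% of all tested genes higher, 0 of 10 is near the background. Of all 14627 tested genes, 4092 had an unadjusted p under 0.05 on the ketogenic diet, and DESeq2 called 2441 and 2422 on the 2 diets. Without high-fat replicate 1 and ketogenic replicate 5, edgeR called 3239 and 1943 of 14369 genes. Cd3d, a chain of the T cell receptor complex, had 0.525 ± 0.142, 0.413 ± 0.0798 and 0.503 ± 0.647 CPM, and Trac, the receptor's alpha chain, had 0.594 ± 0.210, 0.517 ± 0.239 and 0.963 ± 0.860 CPM. The gene that fell was Tcf7, a T cell transcription factor, from 5.69 ± 0.631 to 3.57 ± 0.393 CPM (log2 fold change -0.67 ± 0.16, adjusted p = 0.0156), a call lost with library totals as scaling and without control replicate 3 or 4. Of 10 signalling partners of Themis, 1 rose on the high-fat diet (5 called without high-fat replicate 1 and ketogenic replicate 5) and 0 passed on the ketogenic diet (2 at an unadjusted p under 0.05, 0 in DESeq2). The one was Ptpn6, the phosphatase SHP-1, which associates with Themis, from 17.3 ± 3.79 to 28.2 ± 3.09 CPM (0.70 ± 0.21, adjusted p = 0.041), which 10 of 21 alternatives lost. Lck, the kinase that starts receptor signalling, had 1.17 ± 0.221, 1.22 ± 0.0721 and 1.42 ± 1.44 CPM, while Grb2, an adaptor made in most cells, had 46.7 ± 2.46, 49.2 ± 2.20 and 46.9 ± 3.93 CPM.

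Ephb2, the ephrin receptor, was the most uneven of the 7 genes on the ketogenic diet. Controls had 5, 6, 3 and 2 counts (0.214 ± 0.0943 CPM). High-fat libraries had 9, 137, 178, 132 and 122 counts (5.68 ± 3.16 CPM), with replicate 1 at 0.520 CPM, just above the highest control at 0.305. Ketogenic libraries had 85, 16, 5, 14 and 359 counts (3.68 ± 5.45 CPM), and replicate 3, at 0.255 CPM, lay within the controls. The means were 26.6 and 17.2 times the control mean, and the ketogenic ratio was 6.17 without ketogenic replicate 5.

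Other genes of its family rose from higher control levels. Of 12 tested Eph receptors and ephrins, 3 rose on the high-fat diet and 2 on the ketogenic diet, and 0 fell on either. The shares of all tested genes that rose were 6.95% and 7.47%. The list's median log2 fold changes were 0.49 and 0.28. Efna5, a ligand of A-type Eph receptors, rose from 3.35 ± 0.595 CPM to 7.30 ± 1.01 (1.12 ± 0.17, adjusted p = 0.00071) and 8 ± 1.24 (1.25 ± 0.17, adjusted p = 0.000214). Efnb1, a ligand of Ephb2, rose on the high-fat diet from 14.2 ± 1.99 to 20.9 ± 3.48 CPM (0.56 ± 0.14, adjusted p = 0.018), which was lost without control replicate 3, and had 18.3 ± 2.18 CPM on the ketogenic diet (adjusted p = 0.102). Epha2 rose on the ketogenic diet from 23.7 ± 8.24 to 49.5 ± 13.2 CPM (1.06 ± 0.23, adjusted p = 0.00644), while its call on the high-fat diet (0.75 ± 0.22, adjusted p = 0.0405) was lost in 11 of 21 alternatives. Ephb4, the most abundant B-type receptor, had 26.3 ± 3.11, 22.6 ± 1.56 and 22.9 ± 3.40 CPM (adjusted p = 0.249 and 0.292). Intestinal crypts also express Ephb2. The 6 intestinal epithelium markers summed to 30.0 to 106 CPM in controls, 113 to 170 CPM in high-fat and 141 to 190 CPM in ketogenic libraries, most of it Fabp2, a fatty acid binding protein (46.2, 126 and 142 CPM on average). Lgals4, a galectin of gut epithelium, averaged 7.90, 14.3 and 22.4 CPM and rose on the ketogenic diet (1.5 ± 0.43, adjusted p = 0.0348, lost in 10 of 21 alternatives; high-fat adjusted p = 0.203, or 0.00249 without control replicate 2). Of the 3 tested intestinal markers, 1 rose and 0 fell on the high-fat diet, and 2 rose and 1 fell on the ketogenic diet. The gene that fell was Vil1, with 0.171 to 11.9 CPM in controls and 0.215 ± 0.136 CPM on the ketogenic diet (-3.87 ± 1.09, adjusted p = 0.0326). The defining gut markers Cdx2, Muc2 and Cdh17 averaged 0.212, 1.16 and 1.48 CPM in controls and at most 0.0759 CPM on either fat-rich diet. Their control levels were very uneven, from 0 to 0.848 CPM for Cdx2, 0.0571 to 4.24 for Muc2 and 0 to 5.94 for Cdh17. The part of these transcripts in the Ephb2 level was not tested.

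Sdcbp2, the syntenin-2 gene, had similar means on both fat-rich diets. Controls had 11, 1, 0 and 1 counts (0.183 ± 0.294 CPM), so that replicate 2, the library with high pancreatic and neutrophil markers, held nearly all of them. High-fat libraries had 0.752, 3.67, 8.83, 5.22 and 4.03 CPM (4.50 ± 2.93), and ketogenic libraries had 5.64, 5.89, 2.09, 1.42 and 6.22 CPM (4.26 ± 2.30). All 10 lay above all controls, though high-fat replicate 1 only just, with 0.622 CPM in the highest control. The means were 24.7 and 23.3 times the control mean. Without control replicate 2, with 2 control counts left, the ratios were 134 (95% counting interval 36.8 to 1110) and 125 (34.3 to 1030).

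Sdcbp, the gene of syntenin-1, did not pass on either diet. It had 59.4 ± 4.47, 80.0 ± 8.09 and 76.2 ± 23.3 CPM, with log2 fold changes of 0.43 ± 0.17 (adjusted p = 0.104) and 0.36 ± 0.17 (adjusted p = 0.172). Of 9 syntenin and syndecan genes tested, 1 rose and 1 fell on the high-fat diet, and 0 rose and 2 fell on the ketogenic diet. Among all tested genes 6.95% and 7.47% rose, and 5.01% and 4.6% fell. The list's median log2 fold changes were 0.03 and -0.03. Sdc2, the syndecan that fell on both, had -0.49 ± 0.13 (adjusted p = 0.0216, lost in 5 of 21 alternatives) and -0.66 ± 0.13 (adjusted p = 0.00315). Cd63, a tetraspanin that syntenin-1 binds, rose on the high-fat diet from 6.20 ± 2.18 to 18.3 ± 6.50 CPM (1.56 ± 0.46, adjusted p = 0.0439, lost in 12 of 21 alternatives). Sdc1 fell on the ketogenic diet (-0.36 ± 0.11, adjusted p = 0.0496), which 16 of 21 alternatives lost.

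Mab21l3 was the lowest of the 7 genes per library after Sprr1a in the controls, with 0, 0, 0 and 1 counts. High-fat libraries had 7, 30, 61, 42 and 58 counts (1.93 ± 1.02 CPM), and ketogenic libraries had 35, 8, 7, 12 and 79 counts (1.14 ± 1.09 CPM). Every fat-rich library lay above every control, and ketogenic replicates 1 and 5 lay well above the other 3. Against the single control count, the ratio was 147 (95% counting interval 26.1 to 5830) on the high-fat diet and 92.9 (16.4 to 3690) on the ketogenic diet. Without control replicate 5 these became at least 37.4-fold and at least 23.7-fold, and without ketogenic replicate 5 the ketogenic ratio was 53.9 (9.31 to 2160).

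Of 6 tested relatives of Mab21l3, 2 rose and 0 fell on each diet, while 6.95% and 7.47% of all tested genes rose. Mab21l2, a developmental gene of the eye and other organs, rose from 0.202 ± 0.154 CPM to 0.948 ± 0.154 (log2 fold change 2.19 ± 0.46, adjusted p = 0.00623) and 0.739 ± 0.241 (1.83 ± 0.46, adjusted p = 0.0165). The ketogenic call was lost without control replicate 4 or 5 and with the 2 diets fitted alone. Tmem102 rose from 5.33 ± 0.807 CPM to 8.11 ± 0.651 (0.61 ± 0.16, adjusted p = 0.0262, lost in 6 of 21 alternatives) and 8.33 ± 1.72 (0.64 ± 0.16, adjusted p = 0.0182, lost in 3 of 21). Cgas, the sensor of cytosolic DNA in this family, had 0.624 ± 0.234, 0.575 ± 0.149 and 0.795 ± 0.430 CPM. A direct neighbour of Mab21l3 on chromosome 3 also rose: Slc22a15, a solute carrier, went from 6.63 to 14.1 CPM (1.09, adjusted p = 0.000646) and 10.3 CPM (0.63, adjusted p = 0.0172, lost without control replicate 3 or 4). The tested neighbours on both sides of the other 6 genes did not pass on either diet.

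**Figure D1:**
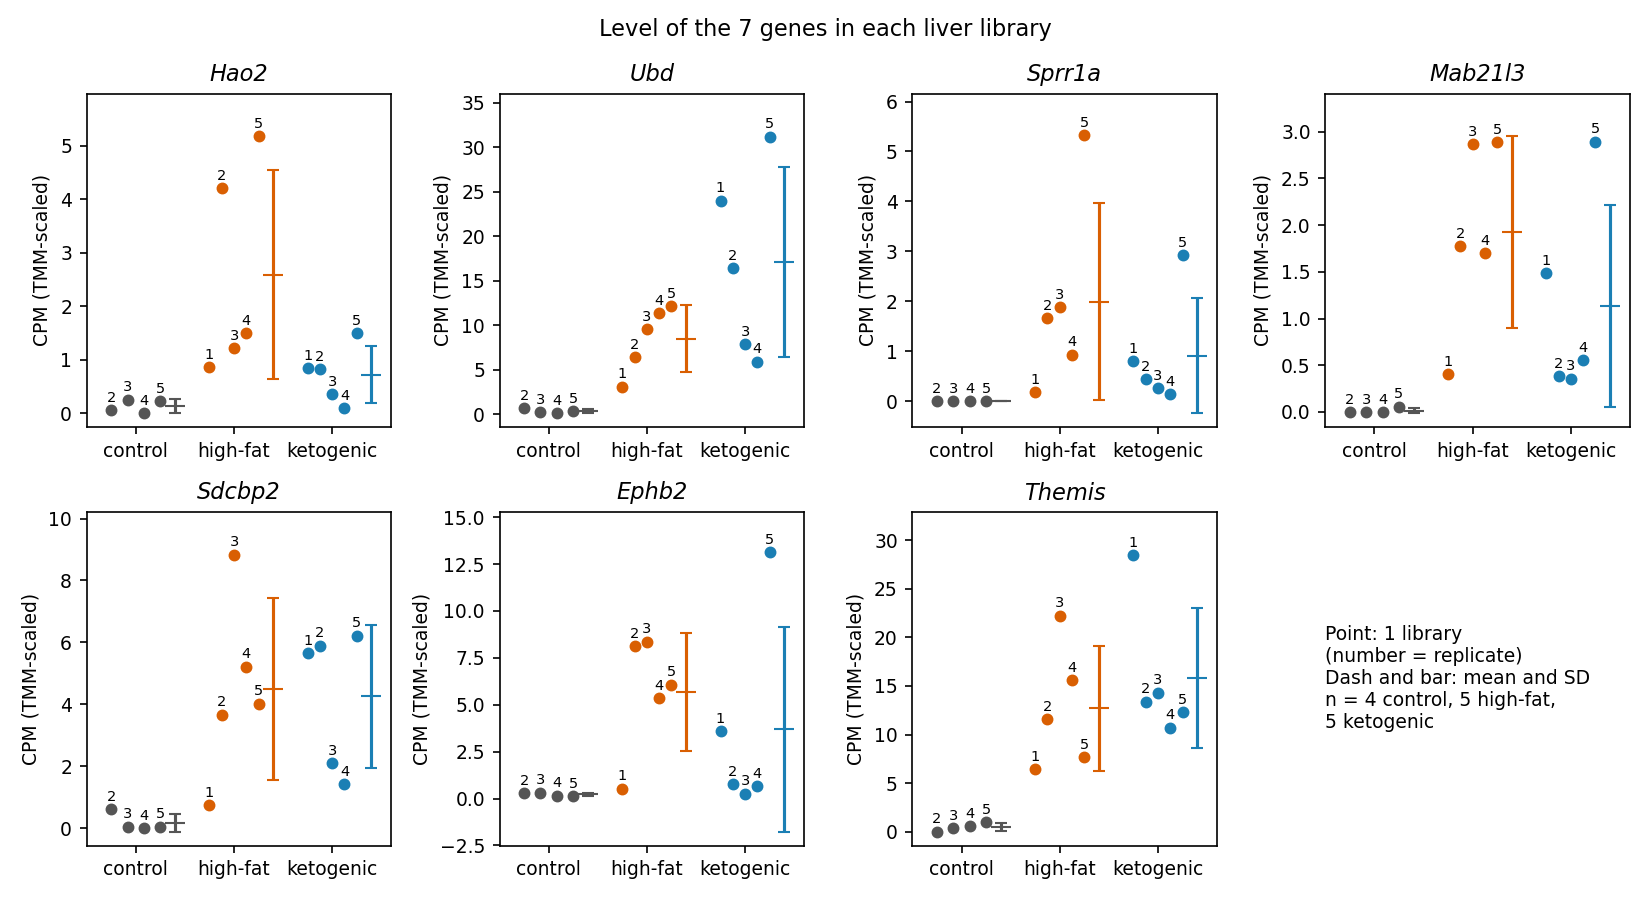
Level of each gene (CPM scaled with TMM, vertical axis) in each library, by diet; points are libraries numbered by replicate, and the dash and bar are the mean and SD (n = 4 control, 5 high-fat, 5 ketogenic). Controls stay under 1 CPM in all 7 panels, and high-fat replicate 1 is the lowest high-fat point in each.

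**Figure D2:**
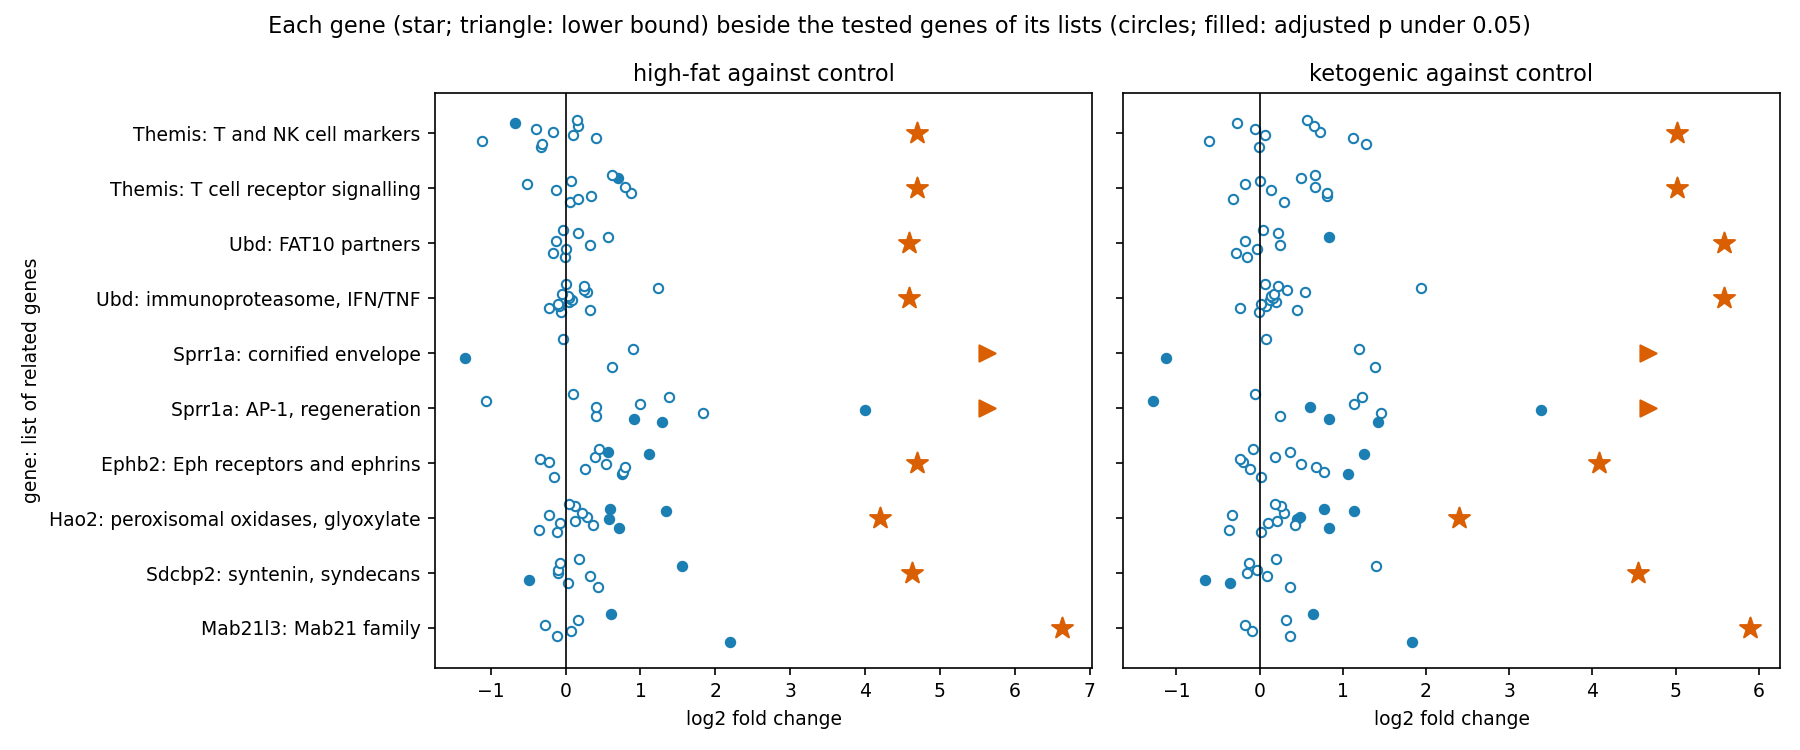
Log2 fold change against control (horizontal axis) of each gene (star, from the same fit, shown as a description) and of the tested genes of the lists related to it (circles, filled where the adjusted p was under 0.05). Sprr1a is drawn as a triangle at the lower bound of its fold, since its controls were at 0. Each of the 7 lies to the right of all genes of its lists, which the choice of the 7 favours.

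Compared with one another per length of exon, the 7 genes kept a like order on both diets. On the high-fat diet Ubd had the highest level (9.16 CPM per kilobase of exon), before Sdcbp2 (3.22), Sprr1a (2.47), Hao2 (1.27), Themis (1.09), Mab21l3 (0.534) and Ephb2 (0.451). On the ketogenic diet Ubd again led (18.3 CPM per kilobase), before Sdcbp2 (3.04), Themis (1.36), Sprr1a (1.13), Hao2 (0.353), Mab21l3 (0.314) and Ephb2 (0.292). Themis and Ephb2 thus ranked higher in CPM than per length, having exons of 11682 and 12608 bases in all against 931 for Ubd. Neighbours in these orders mostly lay within each other's spread: the SD was 99.2% of the mean for Sprr1a on the high-fat diet and 148% for Ephb2 on the ketogenic diet.

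The lowest or highest library of a diet was often the same one across the 7 genes, while the libraries between changed places. High-fat replicate 1 was the lowest high-fat library for all 7, while 26.4% of all tested genes were lowest there. Its levels of the 7 genes summed to 12.3 CPM, against 37.4 to 54.9 CPM in the other high-fat libraries and 0.871 to 1.77 CPM in controls. High-fat replicate 5 was highest for Hao2, Ubd, Sprr1a and Mab21l3, and replicate 3 for Sdcbp2, Ephb2 and Themis. Ketogenic replicate 5 was the highest ketogenic library for 6 of the 7, where 32.8% of all tested genes were highest, and Themis was the exception, with its highest level in replicate 1. Ketogenic replicate 4 was lowest for 5 of the 7, against 15.2% of all tested genes, and replicate 3 was lowest for Mab21l3 and Ephb2. Summed levels in ketogenic replicates 1 to 5 were 64.9, 38.1, 25.5, 19.5 and 70.2 CPM. The sums of lipid-associated macrophage markers, 35.3 to 49.8 CPM in controls, had the same order there, at 133, 86.1, 54.7, 39.3 and 437 CPM, save that replicate 5 stood much farther out. In high-fat livers these marker sums were 98.9, 98.4, 147, 112 and 158 CPM, all above the controls, and replicate 1 was level with replicate 2. Of these 6 markers 2 rose on the high-fat and 3 on the ketogenic diet, and 0 fell. Without high-fat replicate 1 and ketogenic replicate 5, 5 and 3 of them were called. Of 8 stellate cell and fibroblast markers 3 and 4 rose and 0 fell, and 6 and 2 were called without those libraries. The shares of all tested genes that rose were 6.95% and 7.47%. Without those libraries 3239 and 1943 of 14369 genes were called over the whole table. Stellate cell and fibroblast sums ran from 187 to 215 CPM in controls, 264 to 407 CPM on the high-fat diet and 207 to 565 CPM on the ketogenic diet. High-fat replicate 1 had the lowest and ketogenic replicate 5 the highest of these sums in its diet. The part of these markers in the levels was not tested.

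**Figure D3:**
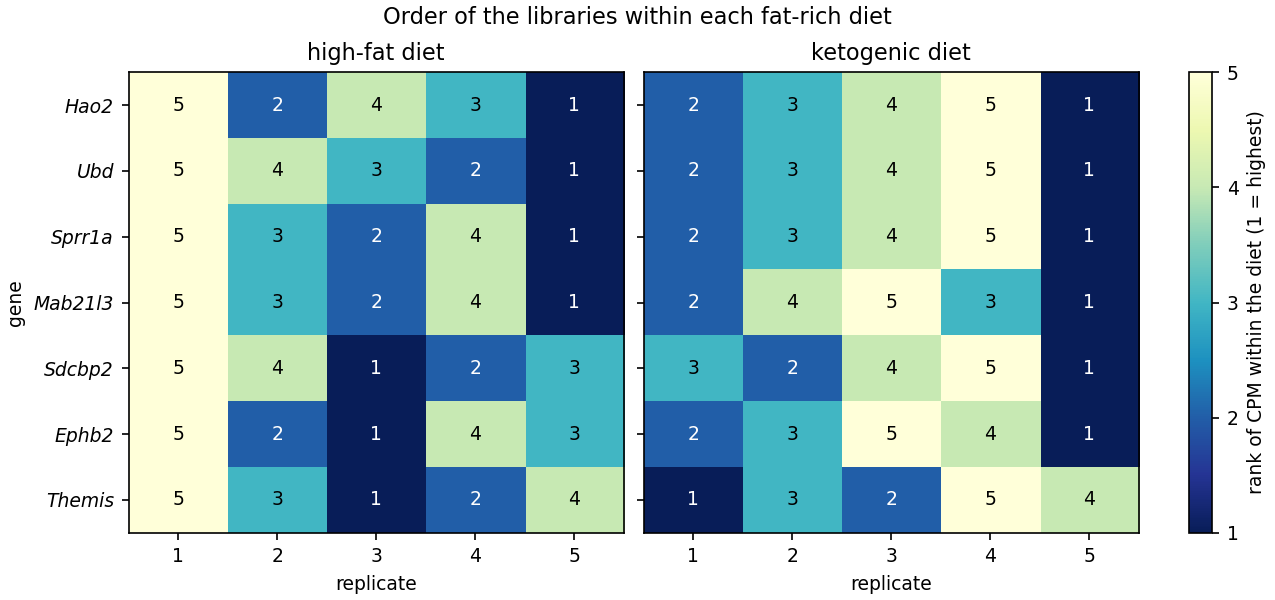
Rank of each library within its diet (1 = highest CPM, dark) for each gene (rows) by replicate (columns), high-fat on the left and ketogenic on the right. The high-fat replicate 1 column holds rank 5 for all 7 genes, and the ketogenic replicate 5 column holds rank 1 for 6 of them.

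Profiles over the 14 libraries were compared by the root mean square difference of standardised log2(CPM + 0.5) values, where 0 means the same shape. The closest pairs among the 7 genes were Mab21l3 with Ephb2 (0.275), Sprr1a with Mab21l3 (0.340) and Ubd with Sdcbp2 (0.341), and the farthest was Hao2 with Themis (0.936). Among all tested genes with a plain symbol, the closest to Hao2 were Nt5e (0.261), an ecto-nucleotidase, Slc22a29 (0.291) and Rnf144a (0.373). Nearest to Ubd were Ifngr2 (0.246), a chain of the interferon-gamma receptor, Ctcflos (0.247) and Uap1l1 (0.247), and nearest to Sprr1a were Sirpb1a (0.281), Chmp2b (0.285) and Ccng2 (0.295). Mab21l3 came closest to Anxa5 (0.200), a phospholipid-binding annexin, then Lrrc39 (0.257) and Ephb2. The genes closest to Sdcbp2 were Gal3st1 (0.286), Ttc39aos1 (0.295) and Slc18b1 (0.304), and those closest to Ephb2 were Arhgap11a (0.266), Rassf4 (0.269) and Mab21l3. Themis came closest to Osbpl3 (0.212), an oxysterol-binding protein, Vnn1 (0.236), a pantetheinase, and Rufy4 (0.237). Vnn1 averaged 10.5 CPM in controls, 126 on the high-fat diet and 157 on the ketogenic diet, and Anxa5 averaged 52.7, 162 and 136 CPM. These profiles share all 14 libraries and the contrast of controls with fat-rich diets.

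The ketogenic and high-fat livers were compared directly, the one contrast that did not choose the genes, although the same libraries entered the choice. None of the 7 genes passed the test: 0 were called by edgeR and 0 by DESeq2, and 2, Hao2 and Ubd, had an unadjusted p under 0.05. Over all tested genes 0.0615% were called, 9 of 14627, while DESeq2 called 173 and 1273 had an unadjusted p under 0.05. In this contrast 5 of the 7 genes were lower and 2 higher on the ketogenic diet, with a median log2 fold change of -0.60 beside 0.02 over all tested genes. Hao2 had the largest difference, -1.80 ± 0.63 (SE), with a 95% interval from -3.14 to -0.47 and an adjusted p of 0.358. Ubd differed the other way, by 1 ± 0.45 (interval 0.03 to 1.97, adjusted p = 0.548).

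For the other 5 genes the intervals included 0 and were wide. Sprr1a had -1.09 ± 0.86 (interval -2.97 to 0.80, adjusted p = 0.809) and Mab21l3 -0.74 ± 0.57 (-1.95 to 0.47, adjusted p = 0.797). Ephb2 had -0.60 ± 0.86 (-2.47 to 1.26, adjusted p = 0.933), Sdcbp2 -0.08 ± 0.60 (-1.36 to 1.20, adjusted p = 0.987) and Themis 0.31 ± 0.41 (-0.57 to 1.20, adjusted p = 0.923). These intervals leave room for differences of more than 2 log2 units downward in Sprr1a and Ephb2, so the diets were not shown to act alike. Biological coefficients of variation of the 7 genes ran from 0.486 for Themis to 0.952 for Ephb2, against 0.25 over all genes.

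The size of these differences rested on high-fat replicate 1 and ketogenic replicate 5. With both left out, a choice made after seeing the data, 4 of the 7 passed: Hao2 at -2.48 (adjusted p = 0.0395), Sprr1a at -2.54 (adjusted p = 0.0448), Mab21l3 at -1.70 (adjusted p = 0.0375) and Ephb2 at -2.37 (adjusted p = 0.03), while 636 genes passed over the whole table. Those libraries hold the lowest high-fat value of all 7 genes and the highest ketogenic value of 6, so leaving them out lowers the difference by construction. Without them Ephb2 averaged 6.97 ± 1.5 CPM on the high-fat and 1.32 ± 1.54 CPM on the ketogenic diet (n = 4 each). Ubd, at 9.88 ± 2.57 and 13.5 ± 8.32 CPM, and Themis, at 14.3 ± 6.22 and 16.7 ± 7.99 CPM, stayed higher on the ketogenic diet in mean.

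**Figure D4:**
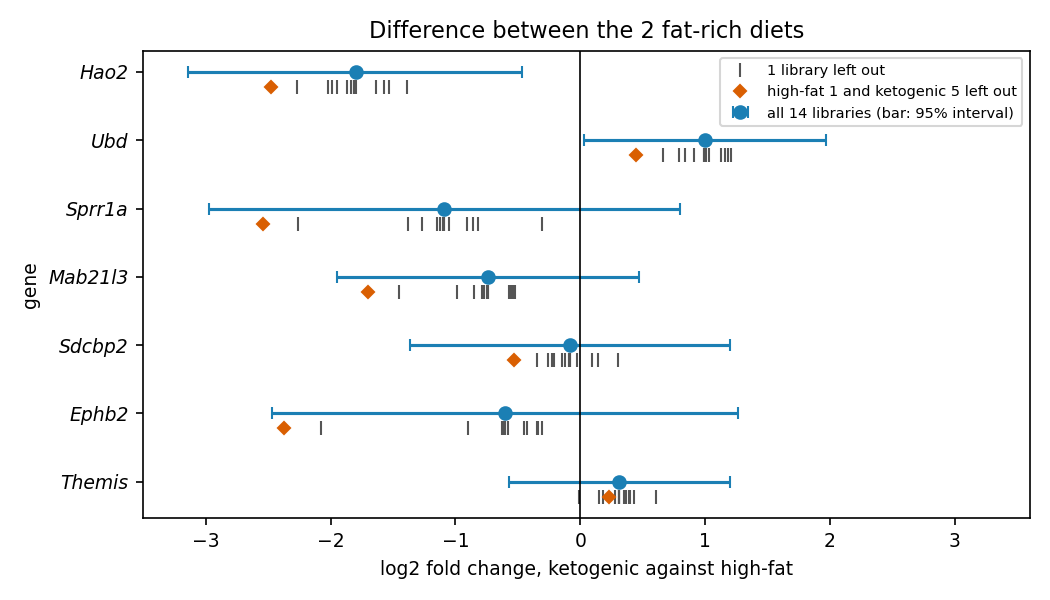
Log2 fold change of ketogenic against high-fat livers for each gene (point) with its 95% interval (bar); ticks are the values with 1 library left out, and diamonds those without high-fat replicate 1 and ketogenic replicate 5. Intervals of Hao2 and Ubd exclude 0 on opposite sides before adjustment, and the diamonds of Hao2, Sprr1a, Mab21l3 and Ephb2 lie farthest left.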

How the data were processed

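Poly(A) RNA was selected and sequenced from a kit that keeps strand, per the labels' protocols. The deposited values are raw read counts per Ensembl gene. Tools listed in the submitters' processing notes, with no roles, are STAR 2.7.9a, featureCounts 1.6, cutadapt 1.16 and DESeq2 1.36.0, with the build GRCm39. Neither strand setting nor annotation release is given there. Symbols came from a GRCm38 annotation, used for names, exon lengths and gene order.

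Low counts were removed by filterByExpr of edgeR 4.0.16 (at least 10 per library, 15 in total). The rest were scaled by TMM, with factors from 0.886 to 1.215, and fitted over all 3 diets with robust glmQLFit in R 4.3.3. P-values from the two-sided glmQLFTest were Benjamini-Hochberg adjusted over 14627 genes. SE is the absolute log2 fold change divided by the square root of F. The procedure was tested on simulated data. Alternatives were DESeq2 1.42.0, other scaling, no filter, a replicate block, a library-number covariate, the compared diets alone and libraries left out.

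The 7 genes and all lists were chosen with earlier results of these data known. Up to 3 genes past the threshold with the smallest adjusted p were named from each list, otherwise the most abundant. Further genes were named after their values were seen, for their role beside a described gene. A few genes that were measured are not reported here.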

Additional observations from a re-analysis of the deposited data

Results flagged for a closer look

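Of the 20 gene and diet groups with counts in which a library standing apart was looked for, 5 held one. Chance gives about 1 in 20 for independent values with a normal spread, which counts this low from shared libraries need not have. Sprr1a in ketogenic replicate 5 was at 2.93 CPM, with a gap to the next library of 0.76 of the group's range. Ephb2 in the same library was at 13.1 CPM (0.74 of the range). Themis in ketogenic replicate 1 was at 28.5 CPM (0.798 of the range). Among controls, Sdcbp2 in replicate 2 was at 0.622 CPM, or 11 counts (0.908 of the range), and Mab21l3 in replicate 5 was at 0.0571 CPM, a single count where the other 3 had 0.

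The excluded control replicate 1, which no comparison used, held 22 counts of Hao2 and 24 counts of Themis, above the highest used controls at 5 and 17 counts. Its counts of the other 5 genes lay within the range of the used controls.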

How the results depend on the processing

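Ketogenic against high-fat differences of Hao2, Ubd, Sprr1a, Mab21l3 and Ephb2 kept their direction in all 21 alternatives, over -2.48 to -1.39, 0.45 to 1.21, -2.54 to -0.31, -1.70 to -0.52 and -2.37 to -0.31. Only the omission of high-fat replicate 1 with ketogenic replicate 5, added after seeing the data, brought calls: -2.48, -2.54, -1.70 and -2.37 for Hao2, Sprr1a, Mab21l3 and Ephb2. Sdcbp2 reversed to 0.30 without high-fat replicate 3, 0.09 without ketogenic replicate 3 and 0.14 without ketogenic replicate 4, within a range of -0.53 to 0.30, and Themis to -0.01 without ketogenic replicate 1, within -0.01 to 0.61; the cause was not tested.

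Genes called in high-fat against control livers, 1749, ranged from 934 to 2617 with 1 library left out (1077, 934 and 1132 without control replicates 3, 4 and 5, 1131 without high-fat replicate 4) and were 3239 without the pair. In ketogenic against control livers, 1766, the range was 1056 to 2201 (1156, 1056 and 1124 without those controls). In ketogenic against high-fat livers, 9, the counts were 15 with library totals, 26 with no filter, 173 in DESeq2, 1 with those diets alone, 1 to 315 with 1 library left out (315 without ketogenic replicate 5) and 636 without the pair. Library totals shifted the median gene from 0.007 to 0.134 and from 0.031 to 0.208 against control, and gave 1302 higher and 420 lower (main 1016 and 733) and 1826 and 368 (main 1093 and 673). In ketogenic against high-fat livers 26.7% of calls were then higher, against 11.1%, and 35.8% in DESeq2.

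Deviations of same-numbered libraries from their diet means had correlations from -0.404 to 0.418. Differently numbered libraries were not compared, so these values cannot settle whether the numbers pair the libraries. A replicate block gave 1380, 1297 and 15 calls. Library numbers fall below 10 or from 13 up. Between these sets the log2 ratio of ketogenic over high-fat means was 1.38 and -0.89 for Sdcbp2 and 1.21 and -0.29 for Themis. It kept its sign for the other 5, at 2.09 and 0.44 for Ubd and -1.60 and -2.02 for Hao2. Depth limits the lowest values: 1 to 3 counts in a control cannot be told from 0.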
